A study of Mus musculus with 32 samples.

Results

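The 6 genes described here encode the negative limb of the circadian clock: the period genes Per1, Per2 and Per3, the cryptochrome genes Cry1 and Cry2, and Ciart (also called CHRONO). They were taken by symbol, and all 6 were found among the 16634 entries of the expression table, each as 1 entry. All 6 also passed the filter on low values (at least 1 FPKM in at least 4 libraries) that left 11975 entries for testing. Members of a transcriptional feedback loop are read here as RNA levels only, since protein was not measured.

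RNA was measured in gastrocnemius, a calf muscle made mainly of fast fibres, of mice aged 10 weeks on a mixed genetic background. The mutant mice carried Sf1-Cre and floxed Sirt1 on both alleles (Sf1-Cre; Sirt1loxP/loxP). The control mice, per the series description, had the same floxed alleles without Cre, so effects of carrying Cre and of losing Sirt1 cannot be told apart. Muscle was collected at Zeitgeber time (ZT, hours after lights on) 0, 6, 12 and 18, with 4 libraries for each genotype and time, 32 in all. Sirt1 encodes an NAD-dependent deacetylase, and the Sf1 promoter drives Cre in neurons of the ventromedial hypothalamus and not in muscle fibres. It is also known to be active in the adrenal cortex and the gonads. These muscle libraries do not show in which cells Sirt1 was lost.

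In the mammalian clock, the activators BMAL1 (encoded by Arntl) and CLOCK, or its relative NPAS2, bind E-boxes and drive transcription of the Per, Cry and Ciart genes. PER and CRY proteins gather in complexes that return to the nucleus and repress the activators, while CIART binds BMAL1 and represses it in parallel. The proteins are then marked by kinases and removed through ubiquitin ligases, and the cycle starts again about once a day. Skeletal muscle runs this clock in its own fibres. It is also reached by feeding, activity, temperature and glucocorticoids, and Per1 and Per2 are known to respond directly to such signals.

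The promoters are shown because Per1, Per2, Per3, Cry1 and Ciart rose and fell over the day in the data below. The E-box and the D-box are the elements through which clock factors are known to drive them. Windows are printed for Per1, Per3, Cry1, Cry2 and Ciart, since none was available for Per2. Cry2 did not pass for a 24 h rhythm in either genotype. Each line gives the 250 bases before the transcription start, from RefSeq on GRCm38.p6 (the mm10 build), 5′ to 3′ on the strand of the gene. Capitals mark E-boxes (CACGTG), E′-boxes (CACGTT, or AACGTG when read on the other strand) and D-boxes (TTATGTAA or TTACGTAA). The Per1 window lies at chr11:69098699-69098948 on the plus strand, the Per3 window at chr4:151044666-151044915 on the minus strand, the Cry1 window at chr10:85185055-85185304 on the minus strand, the Cry2 window at chr2:92434070-92434319 on the minus strand and the Ciart window at chr3:95882229-95882478 on the minus strand.
Per1: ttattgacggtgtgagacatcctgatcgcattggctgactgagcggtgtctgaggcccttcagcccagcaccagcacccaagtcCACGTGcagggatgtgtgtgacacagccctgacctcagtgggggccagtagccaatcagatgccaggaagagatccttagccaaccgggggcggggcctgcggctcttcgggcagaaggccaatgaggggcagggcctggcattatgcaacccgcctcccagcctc
Per3: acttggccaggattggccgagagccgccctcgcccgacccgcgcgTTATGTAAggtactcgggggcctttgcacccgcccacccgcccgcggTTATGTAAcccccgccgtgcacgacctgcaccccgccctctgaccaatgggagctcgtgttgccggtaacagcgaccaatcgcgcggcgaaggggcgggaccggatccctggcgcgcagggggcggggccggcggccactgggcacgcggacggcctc
Cry1: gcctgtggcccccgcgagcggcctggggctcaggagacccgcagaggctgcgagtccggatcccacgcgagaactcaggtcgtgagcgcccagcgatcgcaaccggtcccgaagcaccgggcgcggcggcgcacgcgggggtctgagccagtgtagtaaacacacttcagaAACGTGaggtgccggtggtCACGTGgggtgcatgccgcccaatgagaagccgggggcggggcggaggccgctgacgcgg
Cry2: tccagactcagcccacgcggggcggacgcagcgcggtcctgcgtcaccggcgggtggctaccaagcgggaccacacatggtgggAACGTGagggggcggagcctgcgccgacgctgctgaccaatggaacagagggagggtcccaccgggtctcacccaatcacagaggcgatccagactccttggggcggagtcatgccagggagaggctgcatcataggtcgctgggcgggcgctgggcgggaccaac
Ciart: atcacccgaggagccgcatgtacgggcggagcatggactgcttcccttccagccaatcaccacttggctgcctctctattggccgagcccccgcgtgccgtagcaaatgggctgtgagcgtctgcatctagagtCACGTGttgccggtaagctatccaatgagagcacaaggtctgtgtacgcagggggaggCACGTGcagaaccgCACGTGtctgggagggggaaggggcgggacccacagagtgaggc

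Ciart held 3 E-boxes, starting 116, 58 and 44 bases before the transcription start. Cry1 held 1 E-box 60 bases before the start and 1 E′-box 79 bases before it, and Cry2 held 1 E′-box, 166 bases before its start, and no E-box. Per1 held 1 E-box, 166 bases before the start, and a second Per1 window of the same table, which begins further into the gene, held none of the motifs searched. Per3 held 2 D-boxes, starting 205 and 158 bases before the start, and no E-box. Per2 had no entry in the table. Both strands were searched over 250 bases before and 50 bases after each start, and no motif overlapped another. Among 32851 promoter windows of that length, 7.15% held an E-box, 4.68% an E′-box and 1.06% a D-box. The cyclic AMP response element TGACGTCA (1.79% of windows), the ROR element core TAGGTCA (2.61%) and the glucocorticoid receptor site core TGTTCT (19%) were searched too and were not in any window of a member. These matches describe letters in a window, and no binding was measured.

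In mm10 the members lie on 6 chromosomes. Per1 (XLOC_002800) lies at chr11:69098955-69109957 on the plus strand, and the other members are on minus strands. Per2 (XLOC_000947) lies at chr1:91415981-91459328, Per3 (XLOC_015579) at chr4:151003654-151044665, Cry1 (XLOC_002248) at chr10:85131699-85185054 and Cry2 (XLOC_012578) at chr2:92403646-92434069. Per3 lies inside the span of Camta1 on the same strand and shares no exon base with it. Cry2 shares 295 of its 6320 exon bases (4.7%) with D930015M05Rik, a transcript of the opposite strand that was listed at 0.045 to 0.992 FPKM. The libraries were stranded, but no source used here states whether counting used strand, so reads of those shared bases cannot be told apart. For Ciart (XLOC_013952) the table gives the interval chr3:95871521-95891930, which it also gives for BC028528 and C920021L13Rik, while the GENCODE M21 gene spans chr3:95878503-95882251. The 3 genes share no exon base in that annotation. BC028528 was at 6.08 to 16.9 FPKM in all 32 libraries without a 24 h rhythm that passed in mutants or controls (limma adjusted p = 0.187 and 0.733), and C920021L13Rik did not exceed 0.802 FPKM.

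Of 11 muscle markers, 10 were at 1 FPKM or more in every library. Ckm, the muscle creatine kinase gene, was at 15672 to 22140 FPKM and Mylpf, a fast myosin light chain gene, at 8917 to 17310 FPKM. Other markers varied more between libraries, with Tnnt3 at 569 to 33494 FPKM, Tnnt1 at 26.1 to 229 FPKM and Myh7 at 18.7 to 113 FPKM. Acta1, the skeletal actin gene, was listed at 0 in 12 libraries and at 17234 FPKM or more in the others, so an exact 0 in this table is not read as absence of RNA. No member was at 0 in any library. Absolute depth is unknown. Steps in the low values gave relative depths of 0.814 to 1.32 between libraries. Summed over 19 lymphocyte markers, mutant libraries ranged from 7.37 to 230 FPKM (median 87.5) and control libraries from 8.17 to 226 FPKM (median 13.3). Of these 19 markers, 12 were at 0 in at least 1 library, among them Cd3d, Cd3g and Cd8a, and 2 (Cd52 and Coro1a) were above 1 FPKM in every library. The sum of 12 adipocyte markers, none of them at 0, ranged from 512 to 3116 FPKM in mutants and from 606 to 1913 FPKM in controls. In a piece of whole muscle, fewer cells of a type and less RNA per cell cannot be told apart.

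A few libraries stood apart from their group across the members. Control ZT12 library 3 was the lowest of its group for 6 of 6 members, and its lymphocyte sum was 226 FPKM. Control ZT18 library 0 was the lowest of its group for 5 members and the highest for Cry1, and its lymphocyte sum was 8.17 FPKM. In it Arntl, the activator that runs opposite to the Per genes, was at 8.84 FPKM, the highest of a group whose lowest was 1.12 FPKM. Among mutants, ZT18 library 0 was the lowest and ZT0 library 2 the highest of its group for 6 of 6 members, and control ZT12 library 1 was the highest for 6 of 6. The mean deviation of the 6 members from the group mean, on the log2(FPKM + 1) scale, was -0.25 in mutant ZT18 library 0 and 0.48 in mutant ZT0 library 2. It was -0.68 in control ZT12 library 3, -0.51 in control ZT18 library 0 and 0.44 in control ZT12 library 1. Results that change without control ZT12 library 3 and control ZT18 library 0, a choice made after the values were seen, are given both ways. Both were picked as low for most members, at times when the Per genes and Ciart are high. A larger control amplitude or a smaller spread without them can follow from that choice alone. Mutant ZT18 library 0 was kept in that fit.

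**Figure D1:**
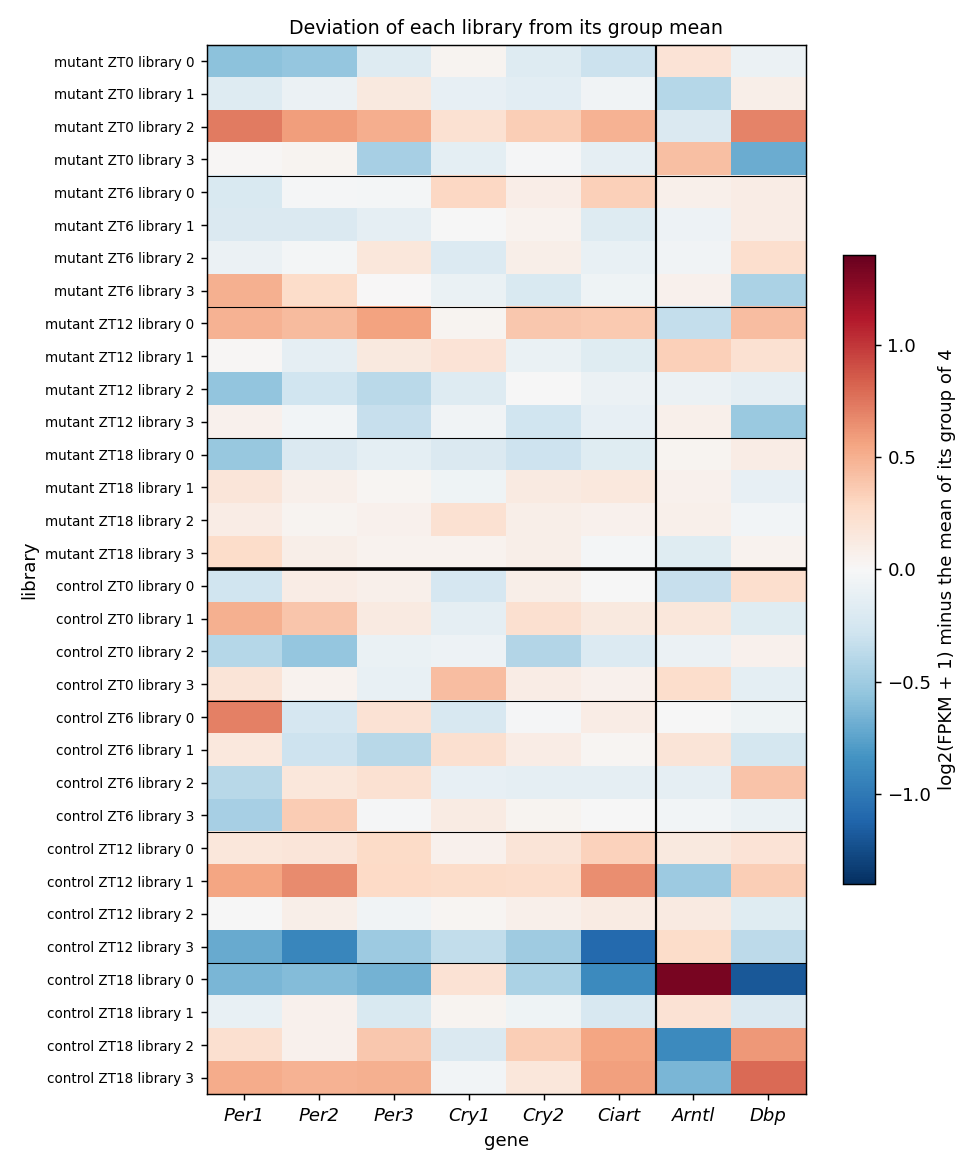
Deviation of each of the 32 libraries (rows, mutants above controls) from the mean of its group of 4, on the log2(FPKM + 1) scale, for the 6 clock repressor genes and for Arntl and Dbp (columns). Red is above and blue below the group mean. Control ZT12 library 3 is low for all 6 repressors, and control ZT18 library 0 is low for all of them but Cry1, with Arntl high and Dbp low.

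In the muscle of mutants and of controls alike, 5 of the 6 members had a 24 h rhythm, with the Per genes and Ciart highest in the dark phase and Cry1 highest around lights on. Cry2 had the smallest daily variation and did not pass in either genotype. A 24 h rhythm was tested as an F test of a cosine and a sine over the 4 group means, with Benjamini-Hochberg adjustment over 11975 genes and a threshold of 0.05. Among mutants 5 of 6 members passed, against 3.92% of all genes tested (470 genes). Among controls 5 of 6 passed, against 5.55% of all genes (665 genes). The median amplitude, from mean to peak on the log2(FPKM + 1) scale, was 1.23 for the 6 members in mutants and 0.98 in controls, beside medians of 0.09 and 0.10 over all genes in the same order. Without control ZT12 library 3 and control ZT18 library 0, 5 of 6 passed in mutants and 6 of 6 in controls. In that fit 501 genes passed in mutants and 904 in controls. Since those libraries were picked for their low member values, no support is drawn from it.

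**Figure D2:**
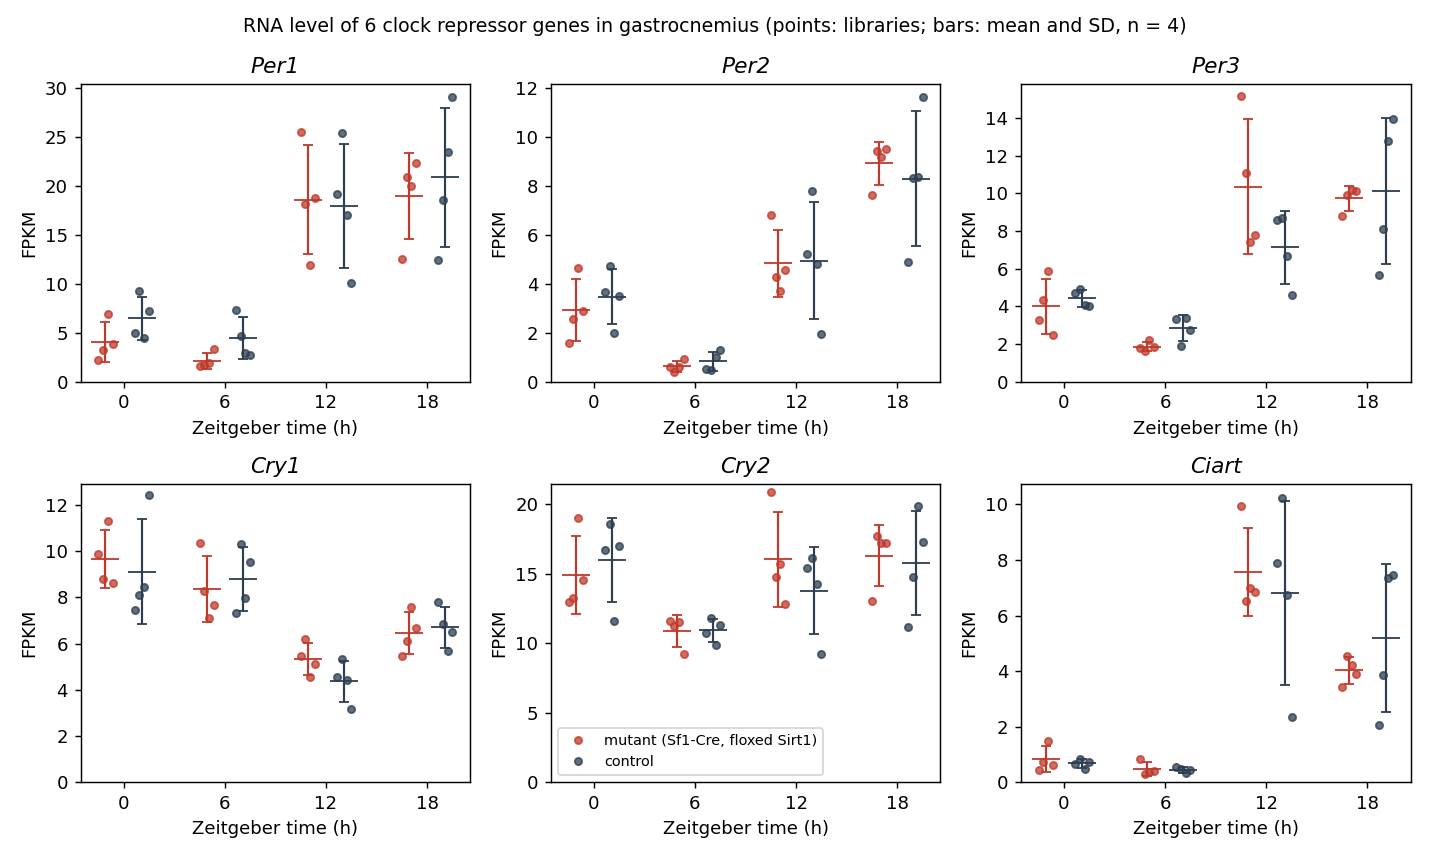
RNA level (FPKM, y axis) of the 6 clock repressor genes at ZT0, 6, 12 and 18 (x axis, hours). Points are single libraries, mutants (red) left of controls (dark), and bars give the mean and SD of 4 libraries. In both genotypes Per1, Per3 and Ciart have lower means at ZT0 and ZT6 than at ZT12 and ZT18, Per2 is lowest at ZT6 and highest at ZT18 with ZT0 and ZT12 overlapping, Cry1 is lowest at ZT12, and Cry2 varies least.

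Per1, a period gene that light, feeding and glucocorticoids are known to induce quickly, was low in the light phase and high in the dark phase. At ZT0 it had 2.23, 3.25, 6.95 and 3.87 FPKM in mutant libraries, against 4.98, 9.22, 4.52 and 7.24 FPKM in control libraries. At ZT6, the time of its lowest group means, it had 1.65, 1.67, 1.91 and 3.34 FPKM in mutant libraries, against 7.36, 4.69, 2.93 and 2.73 FPKM in control libraries. The ranges of the genotypes overlapped at both times, although 3 of 4 mutant libraries at ZT6 lay below the lowest control library. At ZT12 Per1 had 25.5, 18.2, 11.9 and 18.7 FPKM in mutant libraries, against 19.2, 25.4, 17.04 and 10.1 FPKM in control libraries. At ZT18 it had 12.5, 20.9, 19.9 and 22.3 FPKM in mutant libraries, against 12.4, 18.6, 23.4 and 29.03 FPKM in control libraries. All dark-phase libraries lay above all light-phase libraries, and the genotypes overlapped at both dark-phase times. The ZT18 mean was 8.83-fold the ZT6 mean in mutants and 4.71-fold in controls. The fitted amplitude was 1.66 (SE 0.154) with a peak at ZT 15.6 in mutants (limma adjusted p = 1.69e-07) and 1.21 (SE 0.154) with a peak at ZT 15.8 in controls (adjusted p = 4.97e-05).

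Per2, the period gene whose loss shortens or abolishes rhythms of behaviour in mice, had the deepest trough among the period genes. At ZT0 it had 1.59, 2.58, 4.66 and 2.89 FPKM in mutant libraries, against 3.67, 4.71, 1.98 and 3.51 FPKM in control libraries. At ZT6 Per2 had 0.608, 0.414, 0.595 and 0.942 FPKM in mutant libraries, against 0.542, 0.485, 1.02 and 1.31 FPKM in control libraries. Every ZT6 library lay below every ZT0 library of its genotype. At ZT12 it had 6.81, 4.26, 3.71 and 4.57 FPKM in mutant libraries, against 5.2, 7.77, 4.83 and 1.94 FPKM in control libraries. At ZT18 Per2 had 7.63, 9.42, 9.17 and 9.48 FPKM in mutant libraries, against 4.88, 8.32, 8.34 and 11.6 FPKM in control libraries. At ZT12 control library 3 was the lowest library of both genotypes, and at ZT18 the 4 mutant libraries lay within the range of the 4 controls. The ZT18 mean was 13.9-fold the ZT6 mean in mutants and 9.87-fold in controls. The amplitude was 1.34 (SE 0.133) with a peak at ZT 17.1 in mutants (limma adjusted p = 5.5e-07) and 1.17 (SE 0.133) with a peak at ZT 17.4 in controls (adjusted p = 9.78e-06).

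Per3, the period gene that mice can lose with little effect on behavioural rhythms, was likewise lowest at ZT6, with a smaller range over the day. At ZT0 it had 3.27, 4.33, 5.89 and 2.51 FPKM in mutant libraries, against 4.7, 4.93, 4.09 and 4.04 FPKM in control libraries. At ZT6 Per3 had 1.8, 1.61, 2.2 and 1.86 FPKM in mutant libraries, against 3.35, 1.91, 3.38 and 2.74 FPKM in control libraries. Mutant libraries at ZT6 lay close together, 3 of them below the lowest control library, and the ranges overlapped. At ZT12 it had 15.1, 11.1, 7.42 and 7.78 FPKM in mutant libraries, against 8.61, 8.69, 6.68 and 4.61 FPKM in control libraries. At ZT18 Per3 had 8.77, 9.9, 10.2 and 10.1 FPKM in mutant libraries, against 5.69, 8.13, 12.8 and 13.9 FPKM in control libraries. At ZT12 the highest mutant libraries, 15.1 and 11.1 FPKM, lay above all controls and the other 2 lay within the range of the controls. The spread at ZT18 was 0.658 FPKM (SD, n = 4) in mutants and 3.89 FPKM in controls. The amplitude was 1.12 (SE 0.113) with a peak at ZT 15.9 in mutants (limma adjusted p = 7.38e-07) and 0.79 (SE 0.113) with a peak at ZT 16.6 in controls (adjusted p = 0.000263).

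Cry1, the cryptochrome whose loss shortens the behavioural period in mice, peaked on the opposite side of the day. At ZT0 it had 9.87, 8.79, 11.3 and 8.63 FPKM in mutant libraries, against 7.46, 8.11, 8.45 and 12.4 FPKM in control libraries. At ZT6 Cry1 had 10.4, 8.27, 7.13 and 7.67 FPKM in mutant libraries, against 7.31, 10.3, 7.97 and 9.54 FPKM in control libraries. Light-phase values of the genotypes overlapped, and the ZT0 and ZT6 groups overlapped as well. At ZT12 it had 5.45, 6.2, 4.54 and 5.11 FPKM in mutant libraries, against 4.55, 5.32, 4.42 and 3.18 FPKM in control libraries. At ZT18 Cry1 had 5.46, 6.1, 7.59 and 6.68 FPKM in mutant libraries, against 7.81, 6.86, 5.67 and 6.49 FPKM in control libraries. ZT12 was the lowest time in both genotypes, and every ZT12 library lay below every ZT0 and ZT6 library. The ZT0 mean was 1.81-fold the ZT12 mean in mutants and 2.09-fold in controls. The amplitude was 0.41 (SE 0.0714) with a peak at ZT 1.55 in mutants (limma adjusted p = 0.00226) and 0.48 (SE 0.0714) with a peak at ZT 1.38 in controls (adjusted p = 0.00035).

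Cry2, the second cryptochrome, whose loss lengthens the behavioural period in mice, had the highest mean of the 6 members over all times. FPKM is scaled by transcript length, but the quantifier and the annotation are not known, so levels of different genes compare only roughly. The mean of Per1 was above that of Cry2 at ZT12 and ZT18 in both genotypes. At ZT18 Per1 had 18.9 FPKM in mutants and 20.9 FPKM in controls, against 16.3 and 15.8 FPKM for Cry2. Over all times Cry2 averaged 14.5 ± 3.19 FPKM in mutants and 14.1 ± 3.33 FPKM in controls (SD, n = 16 each). At ZT0 Cry2 had 12.9, 13.2, 18.97 and 14.5 FPKM in mutant libraries, against 16.7, 18.6, 11.6 and 16.98 FPKM in control libraries. At ZT6 it had 11.6, 11.2, 11.5 and 9.19 FPKM in mutant libraries, against 10.8, 11.8, 9.88 and 11.3 FPKM in control libraries. ZT6 was the lowest time in both genotypes. At ZT12 Cry2 had 20.9, 14.7, 15.7 and 12.8 FPKM in mutant libraries, against 15.4, 16.1, 14.3 and 9.25 FPKM in control libraries. At ZT18 it had 13.03, 17.7, 17.2 and 17.2 FPKM in mutant libraries, against 11.1, 14.8, 19.9 and 17.3 FPKM in control libraries. In mutants every ZT6 library lay below every library of the other times, in controls ZT6 overlapped with each other time, and the genotypes overlapped at each time. The amplitude was 0.27 (SE 0.0858) in mutants (limma adjusted p = 0.174) and 0.25 (SE 0.0858) in controls (adjusted p = 0.165), and the peak was at ZT 17.4 and ZT 19.6 in the same order. With limma array weights, which give less weight to libraries that deviate, Cry2 passed in mutants (adjusted p = 0.005) and in controls (adjusted p = 0.00611). Those weights raised the number of all genes that passed from 470 to 752 in mutants and from 665 to 2233 in controls. Without control ZT12 library 3 and control ZT18 library 0, Cry2 passed in controls (0.31, adjusted p = 0.0342) and not in mutants (0.27, adjusted p = 0.0629). Over all alternatives its adjusted p ranged from 0.005 to 0.403 in mutants and from 0.00611 to 0.375 in controls.

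Ciart, the repressor of BMAL1 with 3 E-boxes in its promoter window, had the highest ratio of its highest to its lowest time mean among the members, while in mutants the fitted amplitude of Per1 was larger. At ZT0 it had 0.449, 0.722, 1.5 and 0.631 FPKM in mutant libraries, against 0.671, 0.84, 0.462 and 0.741 FPKM in control libraries. At ZT6 Ciart had 0.844, 0.29, 0.363 and 0.402 FPKM in mutant libraries, against 0.545, 0.46, 0.32 and 0.434 FPKM in control libraries. Light-phase values of the genotypes overlapped and did not exceed 1.5 FPKM, a range in which the pseudocount of 1 holds back a fitted change. At ZT12 it had 9.94, 6.52, 6.98 and 6.85 FPKM in mutant libraries, against 7.91, 10.2, 6.73 and 2.35 FPKM in control libraries. At ZT18 Ciart had 3.44, 4.56, 4.21 and 3.9 FPKM in mutant libraries, against 2.06, 3.88, 7.34 and 7.46 FPKM in control libraries. In mutants every ZT12 library lay above every ZT18 library, whereas in controls these times overlapped. The ZT12 mean was 15.9-fold the ZT6 mean in mutants and 15.5-fold in controls. The amplitude was 1.43 (SE 0.138) with a peak at ZT 14.6 in mutants (limma adjusted p = 3.06e-07) and 1.44 (SE 0.138) with a peak at ZT 14.9 in controls (adjusted p = 1.04e-06). Without the control libraries that stood apart, the control amplitude was 1.68 (adjusted p = 3.41e-11).

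**Figure D3:**
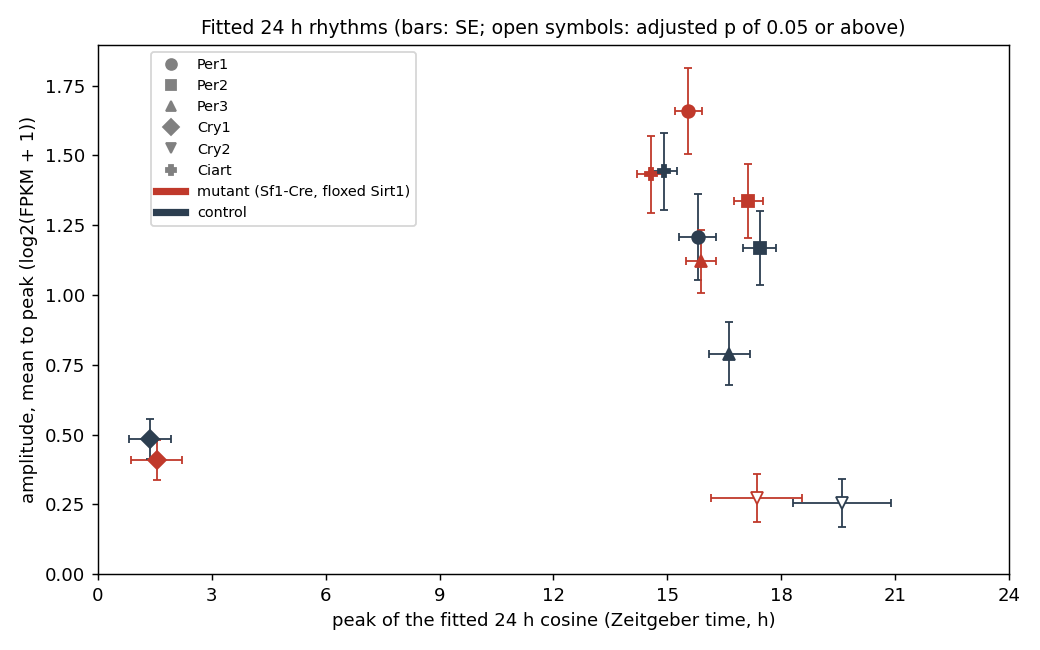
Fitted 24 h rhythms of the 6 clock repressor genes in mutants (red) and controls (dark), with the time of the peak on the x axis (ZT, hours) and the amplitude from mean to peak on the y axis (log2(FPKM + 1)). Bars give SEs, and open symbols mark an adjusted p of 0.05 or above. Ciart, Per1, Per3 and Per2 peak between ZT 14.6 and ZT 17.4, Cry1 peaks near ZT 1.5, and Cry2 has an amplitude of 0.27 in mutants and 0.25 in controls.

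The times were next compared in pairs, with both genotypes averaged in the limma fit. At ZT6 against ZT0, 3 of 6 members fell, against 3.69% of all genes called in either direction. Per2 fell by 1.24 (SE 0.188, limma adjusted p = 0.000288), Per3 fell by 0.64 (SE 0.16, adjusted p = 0.0224) and Cry2 fell by 0.45 (SE 0.121, adjusted p = 0.0342), on the log2(FPKM + 1) scale. The other 3 had negative estimates without passing, with adjusted p of 0.143 for Per1, 0.519 for Ciart and 0.6 for Cry1. The Cry2 call was kept in 24 of 32 fits that each left out 1 library and the Per3 call in 30, and without mutant ZT0 library 2 only Per2 passed.

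At ZT12 against ZT6, 5 of 6 members changed, against 2.35% of all genes. Ciart rose by 2.42 (SE 0.195, limma adjusted p = 3.04e-09), Per1 by 2.22 (SE 0.218, adjusted p = 1.64e-07), Per2 by 1.71 (SE 0.188, adjusted p = 9.47e-07) and Per3 by 1.50 (SE 0.16, adjusted p = 5.83e-07). Cry1 fell by 0.72 (SE 0.101, adjusted p = 6.37e-05). Cry2 had a difference of 0.39 (SE 0.121, adjusted p = 0.0954), and it passed without control ZT12 library 3 (0.48, adjusted p = 0.0191), with a range of 0.00899 to 0.243 over all alternatives.

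At ZT18 against ZT12, 2 of 6 members rose, against 1.69% of all genes. Per2 rose by 0.74 (SE 0.188, limma adjusted p = 0.0369) and Cry1 by 0.38 (SE 0.101, adjusted p = 0.0464). These calls were kept in 21 and 13 of 32 fits that left out 1 library, and neither passed with no filter on low values, or when the fit held those groups alone. Ciart had a difference of -0.54 (SE 0.195, adjusted p = 0.158), and without control ZT12 library 3 it passed (-0.72, adjusted p = 0.0188) while Per2 and Cry1 did not (adjusted p = 0.0786 and 0.104). Over all alternatives the adjusted p ranged from 0.0157 to 0.314 for Ciart, 0.0102 to 0.103 for Per2 and 0.0257 to 0.143 for Cry1. Per1, Per3 and Cry2 had differences of 0.13, 0.19 and 0.11 (adjusted p = 0.81, 0.579 and 0.699).

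The longer intervals were compared in the same way. At ZT12 against ZT0, 4 of 6 members changed, against 5.71% of all genes, with Ciart, Per1 and Per3 higher by 2.17, 1.65 and 0.87 and Cry1 lower (-0.83; limma adjusted p = 4.39e-06). Per2 did not pass (0.47, adjusted p = 0.155), but it did without control ZT12 library 3 (0.62, adjusted p = 0.0251), with a range of 0.0145 to 0.333 over all alternatives. At ZT18 against ZT6, 6 of 6 members changed, against 7.23% of all genes. Per2 was higher by 2.46, Per1 by 2.35, Ciart by 1.88, Per3 by 1.69 and Cry2 by 0.50 (adjusted p = 0.00805 for Cry2), whereas Cry1 was lower (-0.33, adjusted p = 0.041, kept in 22 of 32 fits that left out 1 library). At ZT18 against ZT0, 5 of 6 members changed, against 6.16% of all genes, with Per1, Ciart, Per2 and Per3 higher by 1.78, 1.63, 1.22 and 1.06 and Cry1 lower (-0.45, adjusted p = 0.00652). Cry2 did not pass (0.05, adjusted p = 0.858).

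A cosine of 24 h leaves 1 further pattern over 4 times, a component of 12 h in which ZT0 and ZT12 stand against ZT6 and ZT18. No member passed for it in mutants, where 0% of all genes passed, or in controls, where 0.0668% did (8 genes). At an unadjusted p under 0.05 there were 2 members in mutants, Ciart (0.26, SE 0.0973, limma adjusted p = 0.137) and Per3 (0.20, SE 0.0801, adjusted p = 0.163), and 1 in controls, Cry1 (-0.12, SE 0.0505, adjusted p = 0.273). Over all genes 2577 in mutants and 1741 in controls had an unadjusted p under 0.05.

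The comparison of genotypes asks whether deletion directed at SF1 neurons went with a different level of the repressors in muscle. No member passed at any time or over all times, and the ranges of mutant and control libraries overlapped in all 24 combinations of gene and time. Over all times 0 of 6 members passed in limma, against 0.0251% of all genes (3 genes), and 1 had an unadjusted p under 0.05, against 776 genes in all. At ZT0, ZT6, ZT12 and ZT18 the count was 0 of 6 each, against 0.0167%, 0.0167%, 0.0251% and 0.0167% of all genes. In the same order, 0, 1, 0 and 0 members had an unadjusted p under 0.05, against 1013, 1244, 2085 and 345 of 11975 genes. Ranges that did not overlap were seen in 0 of 6 members at each time, against 2.61%, 12.1%, 7.4% and 2.51% of all genes in the same order of times. The genotype difference changed with time for 0 of 6 members (limma F test), where 0% of all genes passed. No genotype test of a member passed under the alternatives run.

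Per1 had the lowest p among the members. Its mean over all times was 10.9 ± 8.75 FPKM in mutants and 12.4 ± 8.57 FPKM in controls (SD, n = 16 each), a spread that includes the daily variation. On the log2(FPKM + 1) scale, mutant minus control was -0.34 (95% interval -0.66 to -0.03, limma adjusted p = 0.756). The difference was -0.60 at ZT0 (-1.23 to 0.03), -0.74 at ZT6 (-1.37 to -0.11, adjusted p = 0.471), 0.07 at ZT12 (-0.56 to 0.70) and -0.10 at ZT18 (-0.74 to 0.53). At ZT6 the mean was 2.14 ± 0.804 FPKM in mutants and 4.43 ± 2.15 FPKM in controls (SD, n = 4 each), a ratio of 0.484. The adjusted p of this ZT6 difference ranged from 0.0714 with array weights to 0.788 without mutant ZT6 library 3. Array weights also raised the number of all genes that passed at ZT6 from 2 to 232, so the lower value is not particular to Per1. The estimate for Per1 ranged from -0.96 to -0.51, the value nearest 0 being that without control ZT6 library 0.

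Per3 was lower in mutants at ZT6 and higher at ZT12 by its means, without passing. The means were 1.87 ± 0.244 FPKM in mutants and 2.85 ± 0.692 FPKM in controls at ZT6 (log2 difference -0.41, 95% interval -0.87 to 0.06, limma adjusted p = 0.499). At ZT12 they were 10.4 ± 3.59 FPKM in mutants and 7.15 ± 1.93 FPKM in controls (SD, n = 4 each; 0.46, -0.00 to 0.93, adjusted p = 0.291). The ZT12 difference was 0.28 without mutant ZT12 library 0 and 0.29 without control ZT12 library 3, with adjusted p from 0.156 to 0.645 over all alternatives. Over all times the difference was -0.02 (-0.26 to 0.21). The test of whether it changed with time gave adjusted p = 0.398.

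For the other members the difference over all times was -0.04 for Per2 (95% interval -0.31 to 0.23, limma adjusted p = 0.957), 0.06 for Cry1 (-0.09 to 0.20, adjusted p = 0.878), 0.04 for Cry2 (-0.13 to 0.22, adjusted p = 0.927) and 0.04 for Ciart (-0.24 to 0.33, adjusted p = 0.954). On the log2(FPKM + 1) scale, 6 of 6 estimates at ZT12 were positive (median 0.23, beside 0.06 over all genes), although the mean FPKM of Per2 was 4.84 in mutants and 4.93 in controls. At ZT6 5 of 6 estimates were negative (median -0.11, beside -0.03). Without control ZT12 library 3 and control ZT18 library 0, the estimates of Per1, Per2 and Ciart at ZT12 were negative (-0.17, -0.25 and -0.12). The lymphocyte sums differed in median between genotypes as given above. A lymphocyte score and an adipocyte score entered 1 alternative fit as covariates, and 0 of 6 members passed there. Each score was the mean of centred log2(FPKM + 1) over the markers that passed the filter, and not the sum.

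**Figure D4:**
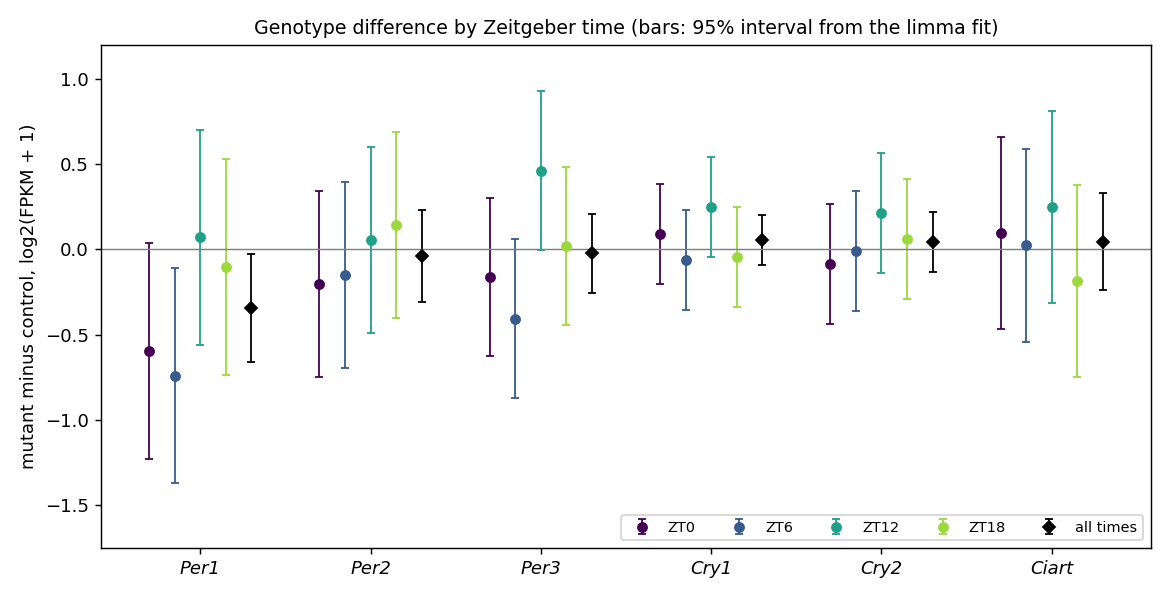
Genotype difference (mutant minus control, log2(FPKM + 1), y axis) of the 6 clock repressor genes at each Zeitgeber time and over all times, with 95% intervals from the limma fit. The intervals of Per1 at ZT6 (-1.37 to -0.11) and over all times (-0.66 to -0.03) lie below 0, before adjustment over all genes, and all others include 0.

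The rhythms themselves were then set side by side. No member passed the test of a rhythm difference between genotypes (0 of 6, limma F test of the difference of cosine and sine), where 0% of all genes passed and 640 had an unadjusted p under 0.05. The lowest p-values were those of Per3 (limma adjusted p = 0.88) and Per1 (limma adjusted p = 0.886). Mutant minus control, the amplitude differed by 0.45 for Per1 (95% interval 0.01 to 0.90), 0.33 for Per3 (0.00 to 0.66), 0.17 for Per2 (-0.22 to 0.55), 0.02 for Cry2 (-0.23 to 0.27), -0.01 for Ciart (-0.41 to 0.39) and -0.07 for Cry1 (-0.28 to 0.13). These intervals are approximate, built from the SEs of the 2 amplitudes, and are not adjusted over members or genes. Those of Per1 and Per3 lie just above 0, although the F test did not reach an unadjusted p under 0.05 for either gene. Without control ZT12 library 3 and control ZT18 library 0, the amplitude in mutants and controls was 1.66 and 1.36 for Per1, 1.12 and 0.92 for Per3 and 1.34 and 1.30 for Per2.

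Peak times lay close together for the members with a clear rhythm. Mutant minus control, the peak differed by -0.25 h for Per1 (95% interval -1.48 to 0.99), -0.30 h for Per2 (-1.48 to 0.88), -0.75 h for Per3 (-2.13 to 0.62), 0.18 h for Cry1 (-1.61 to 1.97) and -0.34 h for Ciart (-1.40 to 0.72). Cry2, whose small amplitude did not pass in either genotype, had -2.25 h (-5.86 to 1.36). With 4 times spaced by 6 h, peaks between the sampled times come from the cosine and were not observed.

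The members also varied together among libraries of the same group. After each group mean was removed, Pearson's r over 32 libraries was 0.844 for Cry2 and Ciart, 0.811 for Per2 and Ciart, 0.781 for Per3 and Ciart, 0.722 for Per1 and Ciart and 0.702 for Per1 and Per2. Cry1 stood outside this, with r from 0.05 (Per3) to 0.285 (Cry2). Arntl ran the other way for the Per genes, Cry2 and Ciart, from -0.718 (Per3) and -0.692 (Ciart) to -0.384 (Per1). Its r with Cry1 was 0.247. The largest Arntl deviations were in control ZT18, at 1.33 in library 0, -0.89 in library 2 and -0.64 in library 3. Libraries share the depth and the dissection of their mouse, so these values are a description.

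The genes outside the members that were most like each of them were ranked by Pearson's r of log2(FPKM + 1) over all 32 libraries. The highest r with Per1 were those of Arrdc2, an arrestin-domain gene (0.923), Nr1d2, which encodes the repressor REV-ERBβ (0.908), and Tob2, an antiproliferative factor gene (0.907), and the lowest was that of the kinase gene Dyrk2 (-0.897). For Per2 they were Snrk, a kinase of the AMPK family (0.904), the alcohol dehydrogenase gene Adh1 (0.902) and the deubiquitinase gene Usp2 (0.886), with Clock lowest (-0.92). Per3 was closest to Dbp, a PAR bZIP factor that binds D-boxes (0.963), then to Usp2 (0.937) and Hlf, a relative of Dbp (0.902), and Arntl was lowest (-0.915). Ciart was closest to Dbp (0.925), the coenzyme Q gene Coq10b (0.9) and Nr1d2 (0.888), with Ypel2 lowest (-0.928).

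The cryptochromes had other neighbours. Cry1 was closest to the transporter gene Slc16a9 (0.875), Ypel2 (0.85) and the zinc finger factor gene Rreb1 (0.844), and farthest from Jarid2, a partner of the Polycomb complex (-0.711). Ypel2 thus stood highest but one with Cry1 and lowest with Ciart. Cry2 was closest to Art5, an ADP-ribosyltransferase gene (0.872), Tbc1d17, a Rab GTPase-activating protein gene (0.855), and Asb15, a muscle gene of the SOCS box family (0.849), and farthest from the ubiquitin ligase gene Pja1 (-0.815). Each r shares the same libraries and the common daily rhythm.

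Around the members, 65 further genes of the clock and its inputs were listed and 62 were tested. A 24 h rhythm passed for 15 of 62 in mutants and 11 of 62 in controls, and 0 of 62 differed between genotypes over all times or at any single time. Of 4 activators of the loop, 3 were rhythmic in each genotype, with peaks in the light phase. Arntl had an amplitude of 1.60 and a peak at ZT 4.26 in mutants and 1.19 and ZT 3.93 in controls (limma adjusted p = 9.49e-08 and 1.89e-05). Npas2 had 0.58 and 0.49, and Clock 0.49 and 0.40, both with peaks between ZT 5.03 and ZT 5.30. Arntl2, the fourth, did not pass (0.11 in mutants and 0.19 in controls, limma adjusted p = 0.709 and 0.232).

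The receptors that act on ROR elements in the Arntl and Cry1 genes gave 2 of 4 rhythmic in each genotype. Nr1d1, which encodes REV-ERBα, had an amplitude of 1.44 and a peak at ZT 10.6 in mutants and 0.96 and ZT 10.3 in controls (limma adjusted p = 1.47e-07 and 0.000127). Nr1d2 followed at ZT 15.1 (0.82) in mutants and ZT 15.3 (0.54) in controls. Among PAR bZIP and DEC factors, 4 of 6 were rhythmic in mutants and 3 of 6 in controls. Dbp had 2.13 in mutants and 1.55 in controls, Hlf 0.55 and 0.35, and Nfil3, a repressor at D-boxes, 0.81 and 0.74 with peaks at ZT 0.895 and ZT 0.778, near that of Cry1. The fourth in mutants was Tef (0.46, adjusted p = 0.000501, against 0.24 and adjusted p = 0.0923 in controls), which was named after its values were seen.

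The genes that modify or carry PER and CRY proteins were counted against the shares of all genes given above, 3.92% in mutants and 5.55% in controls. Of 16 kinase, ligase and deubiquitinase genes 1 was rhythmic in each genotype, Usp2, with an amplitude of 0.70 in mutants and 0.48 in controls (limma adjusted p = 0.000117 and 0.00671). Of 17 partners and corepressors of PER complexes 0 were rhythmic, with 0 in mutants and 2 in controls at an unadjusted p under 0.05. Among all 11975 genes, 1720 in mutants and 2327 in controls had an unadjusted p under 0.05 for a rhythm. Of 15 genes of systemic cues known to act on Per genes, 5 were rhythmic in mutants and 2 in controls. Ddit4, a glucocorticoid-responsive inhibitor of mTORC1, had 1.49 in mutants and 1.41 in controls. Fkbp5, a chaperone of the glucocorticoid receptor, had 0.78 in mutants and 0.47 in controls, where it did not pass (limma adjusted p = 0.229). Tsc22d3, which encodes the glucocorticoid-induced leucine zipper protein, had 0.55 in mutants and 0.37 in controls, where it did not pass (limma adjusted p = 0.148). The other gene that passed in controls was Klf9, a factor induced by glucocorticoids (0.37 in mutants and 0.31 in controls), which was named after its values were seen. A rhythm that passed in mutants and not in controls does not show a difference, and no gene of these lists passed the test of the difference.

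**Figure D5:**
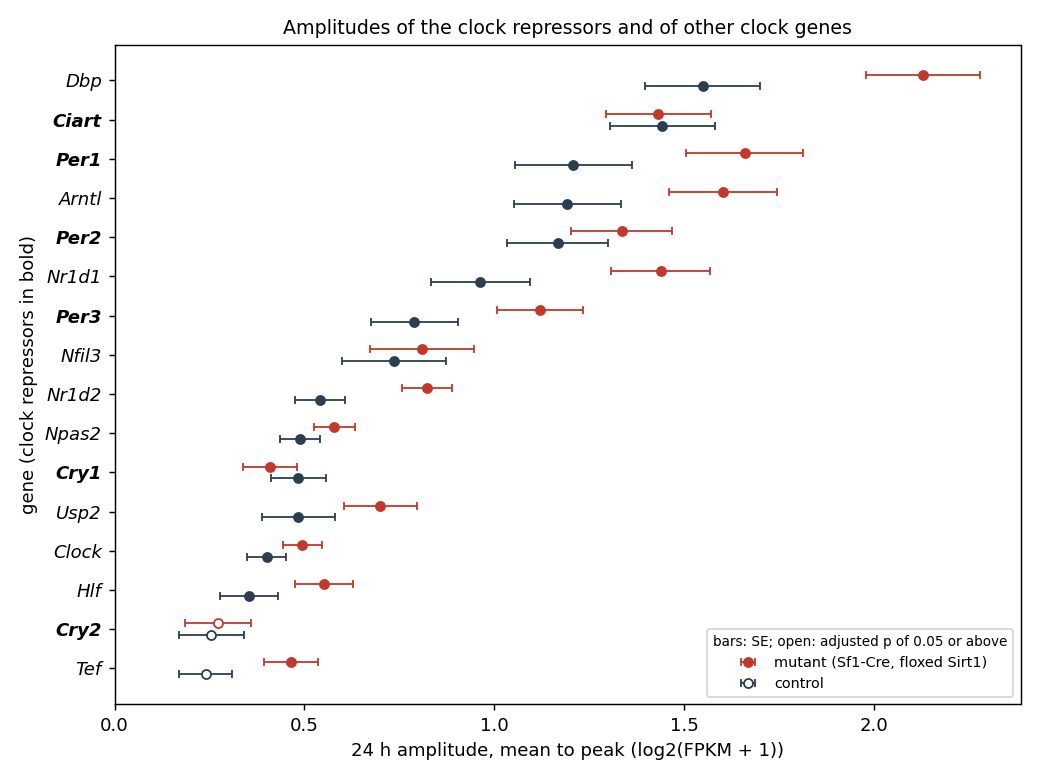
Amplitude of the 24 h rhythm (mean to peak, log2(FPKM + 1), x axis) of the 6 clock repressor genes (bold) and of activators, receptors, PAR bZIP factors and Usp2 that passed in either genotype (y axis, ordered by the control amplitude). Mutants are red and controls dark, bars give SEs, and open symbols mark an adjusted p of 0.05 or above. Ciart, Per1 and Per2 lie among the largest amplitudes with Dbp and Arntl, and Cry1 and Cry2 lie in the lower part with Clock and Hlf.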

How the data were processed

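The deposited values are FPKM, a fragment count scaled by transcript length and by library size, as the authors calculated them for each gene. Per the labels' protocols, stranded poly(A) libraries were read from 1 end for 100 cycles, in 4 pools that held 8 samples each. Per the submitters' processing notes the genome was mm10. No source used here names the aligner, the quantifier or the annotation, or ties a sample to its pool. Pool therefore cannot be told apart from time or from genotype. Columns were matched to groups by the genotype and time in their names, and 0 value columns were left unmatched. The names give genotype as WT or TG. WT was taken as control and TG as the group with Sf1-Cre, an assumption, since no label ties a column to a sample. The library number identifies no mouse, and p-values measure only the spread between these samples.

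From the deposited values, log2(FPKM + 1) was fitted in limma 3.58.1 (R 4.3.3), with 1 mean for each of 8 groups and a trend in the variance prior (residual degrees of freedom 24, prior 3.37). All 11975 genes with at least 1 FPKM in at least 4 libraries entered the fit, and Benjamini-Hochberg adjustment of the p-values ran over all of them. A fold on this scale understates the change of low genes. Relative depth came from 351 genes whose low values fell in steps (73.8% within 0.1 of a whole multiple, against 20% with no steps), and read counts were not recovered. The fit was tested on simulated data. The 6 members and the gene lists were chosen with earlier results of these data known. Named beside the members were at most 3 genes of each list, those with the largest control amplitude among genes rhythmic in either genotype, and for each member the 3 genes with the highest r and the 1 with the lowest. The alternatives were other pseudocounts, filters and scalings, array weights, marker scores as covariates, the compared groups alone, and each library left out in turn.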

Additional observations from a re-analysis of the deposited data

Results flagged for a closer look

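In 5 of 48 combinations of member and group, 1 of 4 libraries lay farther from the rest than Dixon's 95% critical value allows. For independent sets chance gives about 1 in 20. These sets share libraries and the members vary together, so the count cannot be set against that rate. Per1 was high in mutant ZT6 library 3 (3.34 FPKM), and the same library was low for Cry2 (9.19 FPKM). Mutant ZT18 library 0 was low for Per2 (7.63 FPKM) and for Cry2 (13.03 FPKM), and it was the lowest of its group for all 6 members. Ciart was high in mutant ZT12 library 0 (9.94 FPKM). All 5 lie in mutant groups.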

How the results depend on the processing

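No genotype test of a member, and no 12 h component, passed under any alternative or with any 1 library left out. The count of members with a 24 h rhythm was 5 or 6 in mutants (6 with array weights) and 5 or 6 in controls, except with a minimum mean of 5 FPKM, where Per2 and Ciart left the fit. That filter gave 3 rhythmic members in mutants, 3 in controls, 3 at ZT12 against ZT6, 1 at ZT18 against ZT12 and 3 at ZT18 against ZT0. The count at ZT18 against ZT12 was also 1 with a pseudocount of 0.1, and 0 with no filter, with the compared groups alone and with marker scores of lymphocytes and adipocytes as covariates. With 1 library left out it ranged from 0 to 2, and at ZT6 against ZT0 from 1 to 3. Array weights raised the number of all genes with a 24 h rhythm from 470 to 752 in mutants and from 665 to 2233 in controls. The causes were not tested. The fit of the compared groups alone gave no separate value for all times, for genotype by time or for the rhythm difference, which use all groups. No paired analysis was possible because the library numbers identify no mouse and the labels pair none. Depth is known only relatively, so no limit from counting can be given.

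Estimates that turned direction had not passed in the main fit. Not all were small, and that of Ciart at ZT12 was 0.25 in the main fit. For mutant minus control, quantile normalisation gave 0.029 for Cry2 and -0.17 for Ciart at ZT6. Median scaling gave 0.000811 for Cry2 at ZT6 and -0.00951 for Per2 at ZT12. Array weights gave -0.000868 for Cry2 and -0.071 for Ciart over all times, -0.022 for Ciart at ZT0, 0.0093 for Cry2 and -0.00399 for Ciart at ZT6, -0.053 for Per1 and -0.11 for Per2 at ZT12, and -0.10 for Per3 and 0.038 for Cry1 at ZT18. Covariates gave 0.092 for Cry2 at ZT6 and -0.0148 for Per3 at ZT18. Without control ZT12 library 3 and control ZT18 library 0, values were -0.035 for Cry2 and -0.12 for Ciart over all times, -0.17 for Per1, -0.25 for Per2 and -0.12 for Ciart at ZT12, and -0.061 for Per2, -0.20 for Per3, 0.018 for Cry1 and -0.084 for Cry2 at ZT18. For Cry2 at ZT12 against ZT0, array weights gave 0.024 and the fit without those libraries 0.025.

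With 1 library left out, mutant minus control over all times ranged from -0.12 to 0.016 for Per2, -0.078 to 0.019 for Per3 and -0.046 to 0.099 for Ciart. At ZT0 it ranged from -0.067 to 0.19 for Ciart, and at ZT6 from -0.16 to 0.00834 for Cry1, -0.053 to 0.062 for Cry2 and -0.089 to 0.082 for Ciart. At ZT12 it ranged from -0.17 to 0.25 for Per1, -0.25 to 0.27 for Per2 and -0.12 to 0.47 for Ciart. At ZT18 it ranged from -0.32 to 0.073 for Per1, -0.061 to 0.31 for Per2, -0.20 to 0.18 for Per3, -0.12 to 0.018 for Cry1, -0.084 to 0.18 for Cry2 and -0.48 to 0.00465 for Ciart. The 12 h component ranged from -0.029 to 0.013 for Cry1 in mutants and from -0.029 to 0.068 for Per3 in controls. For Cry2, ZT12 against ZT0 ranged from -0.13 to 0.025 and ZT18 against ZT0 from -0.019 to 0.12.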
